A study of Mus musculus with 8 samples.

Results

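The genes described here encode the nuclear subunits of the mitochondrial respiratory chain and ATP synthase, measured in cells sorted from the colon as macrophages. They were taken from the gene table by symbol, as every gene whose name begins with Nduf, Uqcr, Cox4 to Cox8 or Atp5, together with Cyc1 and Sdha to Sdhd. The rule found 89 of 14971 named genes. Of these, 79 encode subunits or alternative subunit isoforms, 8 are Ndufaf assembly factors of complex I, and 2 are neither (Cox7a2l, a supercomplex factor, and Atp5s). A further 7 Sdhaf and Uqcc assembly factors were added for comparison, which gave 15 assembly factors. All but 1 of the 89 members passed the filter on low counts, the exception being Cox4i2. Mitochondrially encoded subunits were not analysed here.

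GPR35-positive cells were compared with GPR35-negative cells, both sorted as MHCII+ CD64+ macrophages of the colonic lamina propria; all animals were male mice. GPR35 is a G protein-coupled receptor. Each of 4 animals gave 1 library of each kind, so there were 4 libraries in each group. The sources used here give no strain, genotype, age or treatment, and the receptor was the only sorting difference named between the groups. RNA was amplified from low input and sequenced in bulk, so fewer cells of a type and less RNA per cell cannot be told apart.

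The respiratory chain moves electrons from NADH and succinate to oxygen across the inner mitochondrial membrane. Complex I oxidises NADH, complex II oxidises succinate, both reduce coenzyme Q, complex III passes the electrons to cytochrome c, and complex IV reduces oxygen. Complexes I, III and IV pump protons, and complex V uses the returning protons to make ATP. In macrophages, complexes I and II are also known as sources of reactive oxygen species and as points where inflammatory signals alter metabolism.

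Promoter sequence is shown for 4 members on which the results turn: Ndufa4 and Ndufa1 as the subunits with the largest decreases past the threshold, Cox6a1 as a decreased subunit that carries an NRF1 motif, and Sdhd as the best-covered increased member. Each run is the 170 bases before the annotated start, on the minus strand, from RefSeq on GRCm38.p6. Capitals mark an NRF1 motif (GCATGCGC, in either orientation) or an ETS motif (CGGAAG, read CTTCCG on the other strand). The windows lie at chr6:11907451-11907620 for Ndufa4, chrX:37191239-37191408 for Ndufa1, chr5:115348959-115349128 for Cox6a1 and chr9:50603850-50604019 for Sdhd.
Ndufa4: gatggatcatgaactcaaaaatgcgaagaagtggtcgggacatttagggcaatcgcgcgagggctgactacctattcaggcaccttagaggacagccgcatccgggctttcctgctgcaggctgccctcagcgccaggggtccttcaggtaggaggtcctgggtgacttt
Ndufa1: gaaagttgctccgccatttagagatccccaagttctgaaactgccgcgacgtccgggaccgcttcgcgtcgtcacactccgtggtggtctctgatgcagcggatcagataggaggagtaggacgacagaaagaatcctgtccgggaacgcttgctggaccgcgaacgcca
Cox6a1: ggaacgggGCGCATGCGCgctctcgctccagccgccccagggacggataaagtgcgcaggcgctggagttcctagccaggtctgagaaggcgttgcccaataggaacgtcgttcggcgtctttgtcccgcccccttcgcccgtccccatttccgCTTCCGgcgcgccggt
Sdhd: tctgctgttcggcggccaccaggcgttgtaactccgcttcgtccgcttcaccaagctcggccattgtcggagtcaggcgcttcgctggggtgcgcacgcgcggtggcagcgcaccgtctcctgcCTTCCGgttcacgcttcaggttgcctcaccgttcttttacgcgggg

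NRF1, GABP (an ETS factor) and YY1 are known regulators of nuclear respiratory genes. Windows of 250 bases before the start were searched on both strands for 64 subunit genes, which had 69 windows. The NRF1 letters stood in 10.1% of these windows, beside 2.26% of all 32851 promoter windows, and the ETS letters stood in 30.4% beside 13.6%. For YY1 (AAGATGGCG) the shares were 1.45% and 0.606%. Among the 7 subunit genes with the NRF1 letters 4 were lower in GPR35-positive cells and the median log2 fold change was -0.44. Among the 57 without them 33 were lower and the median was -0.54. Of all tested genes 19.5% were lower at the same threshold, an edgeR adjusted p under 0.05. A match is a description of letters and not a binding site. Among the transcripts of these factors, Nrf1 had a log2 fold change of 0.02 (edgeR adjusted p = 0.927), Gabpa one of 0.35 (adjusted p = 0.148) and Yy1 one of -0.02 (adjusted p = 0.954).

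Total counts were 33.8 to 48.6 M in GPR35-positive and 16 to 30.1 M in GPR35-negative libraries. Gpr35 was at 73.3 ± 14.9 CPM (read count scaled to effective library size) in GPR35-positive and 2.96 ± 1.46 CPM in GPR35-negative libraries (SD, n = 4 each). All 20 macrophage markers were higher in GPR35-positive libraries, where their summed level was 48952 to 57789 CPM, against 5573 to 24259 CPM in GPR35-negative libraries; none was at 0 in a whole group. Of 14 B and plasma cell markers 13 were lower and 1 was higher, with a log2 fold change of 0.67. The higher one was not past the threshold with an offset on gene length. The sum of the 14 was 1407 to 2844 CPM in GPR35-positive against 73806 to 144321 CPM in GPR35-negative libraries. Jchain, the joining chain of secreted antibodies, alone took 0.0589% to 0.197% of counts in GPR35-positive and 7.37% to 14.1% in GPR35-negative libraries. Sums for stromal, endothelial and muscle markers were 220 to 1108 CPM against 3172 to 7316 CPM, with 8 of 11 lower. The T and innate lymphoid sums were 52.7 to 64.9 CPM in GPR35-positive and 335 to 598 CPM in GPR35-negative libraries (7 of 10 lower; 3 lower and 1 higher with the animal as a block), and the epithelial sums were 89.7 to 157 CPM and 210 to 606 CPM (3 of 9 lower). Granulocyte and mast cell sums were 19.9 to 27.2 CPM against 72.3 to 238 CPM (2 of 8 tested lower, and 1 with the animal as a block), and dendritic cell sums were 132 to 444 CPM against 41.3 to 60.5 CPM (3 of 8 higher). In GPR35-negative libraries the B and plasma cell sum was above the macrophage sum in every replicate. GPR35-negative cells below therefore means the sorted population and not macrophages alone. The marker levels of all these lists differ between the same groups as every result below, and their part in those results was not tested.

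Many respiratory chain genes were lower in GPR35-positive cells. Of 88 tested members, 43 (48.9%) were lower at an adjusted p under 0.05 (edgeR quasi-likelihood test, Benjamini-Hochberg over all tested genes), beside 19.5% of all 14184 tested genes. Only 2 members (2.27%), Sdhd and Cox6a2, were higher, beside 18.5% of all tested genes. The median log2 fold change, GPR35-positive over GPR35-negative, was -0.49 for the members and -0.05 for all tested genes. Each of the 45 members past the threshold differed in 1 direction in all 4 animals. They were picked by the test on the same libraries, so this adds no support, and the share among all genes past the threshold was not counted. The GPR35-positive and GPR35-negative libraries did not overlap for 49 of the 88 members, beside 5970 of all 14184 tested genes. Members took 0.647%, 0.767%, 0.727% and 0.711% of the counts in GPR35-positive replicates 1 to 4, against 0.985%, 1.16%, 1.26% and 1.53% in GPR35-negative replicates 1 to 4. The ranges did not overlap, and the difference was smallest in replicate 1 and largest in replicate 4. These are shares of raw library totals. On that scale the median log2 fold change of all tested genes was itself -0.34.

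**Figure D1:**
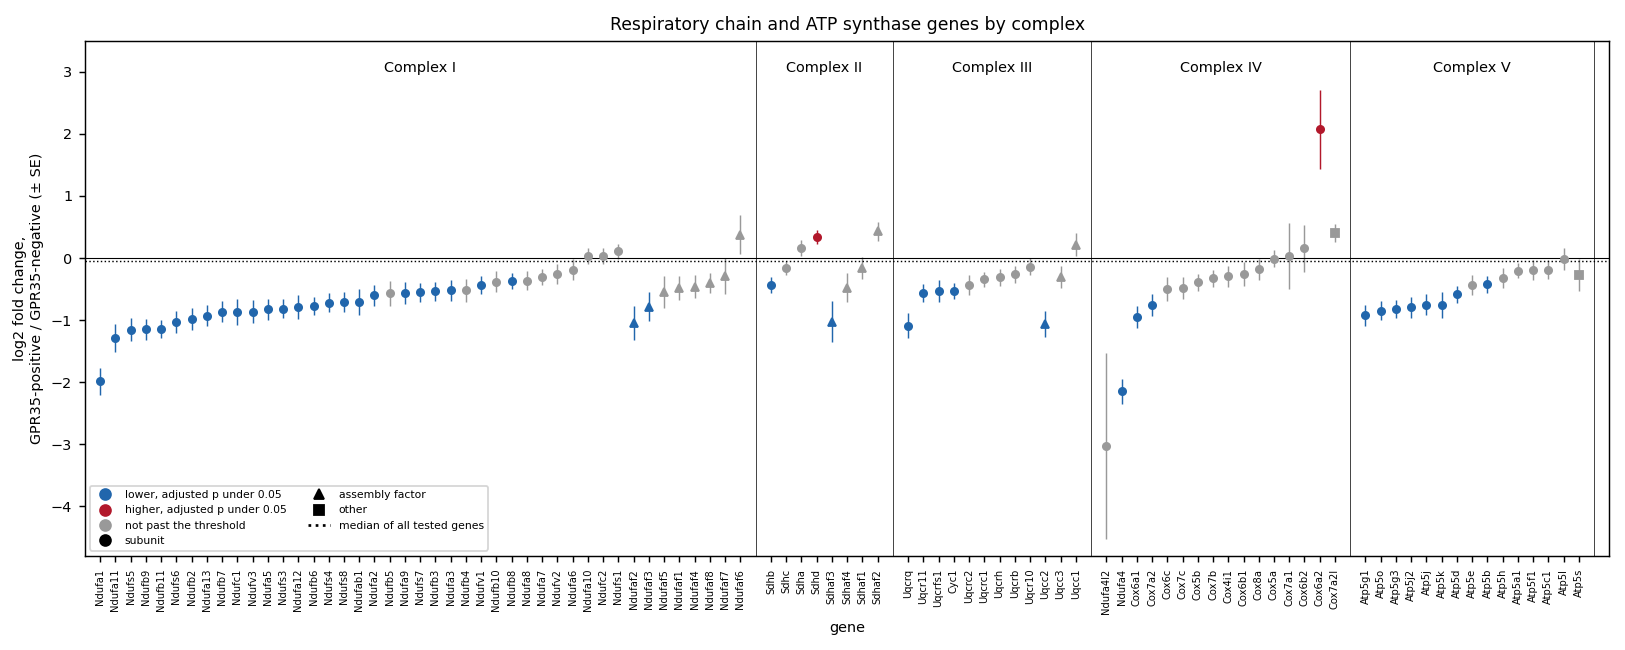
Log2 fold change (GPR35-positive over GPR35-negative, ± SE) of the tested subunits, assembly factors and other members, with 1 subunit left out, ordered within complexes I to V; colours mark genes past an adjusted p of 0.05 and the dotted line is the median of all tested genes (-0.05). Most points lie below 0, Ndufa4 and Ndufa1 are the lowest of those past the threshold, and only Sdhd and Cox6a2 are past it above 0.

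Among subunits alone, 41 of 78 (52.6%) were lower and 2 (2.56%) were higher, beside 19.5% and 18.5% of all tested genes. The subunit median was -0.52. Of 15 assembly factors 4 were lower (26.7%, beside 19.5% of all tested genes) and 0 higher (beside 18.5%), with a median of -0.46. With the animal as a block 3 of them were lower. In a fit that removed each library's trend on gene length 2 were lower (13.3%, beside 20.1% of all tested genes). The direction of the median was shared by both classes, and no test of the difference between the classes was made. By complex, the subunit medians were -0.65 for complex I, 0.00 for complex II, -0.44 for complex III, -0.32 for complex IV and -0.51 for complex V.

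Gene length moved with the fold change. Among all tested genes shorter than 1000 bases the median log2 fold change was -0.35 and 28.4% were lower, while among those of 1000 bases or more it was -0.02 and 18.8% were lower. Most subunit transcripts are short: 53 of the tested subunits were under 1000 bases, with a median of -0.57, and 25 were longer, with a median of -0.34. Up to 500 bases the medians were -0.66 for 14 subunits and -0.30 for all tested genes. Above 500 and up to 700 bases they were -0.38 for 24 subunits and -0.38 for all. Above 700 and up to 1000 bases they were -0.75 for 15 subunits and -0.34 for all. In the animal of replicate 4 the median difference of short genes was -0.66, and in the other animals it lay between -0.35 and -0.17. A fit that removed each library's trend on gene length left 29 members lower (33.0%, beside 20.1% of all tested genes), of which 28 were among the 43. It placed 7 members higher (7.95%, beside 18.3%): Sdhd, Cox6a2, Cox7a2l, Cox5a, Ndufc2, Atp5l and Uqcr10. The subunit median in that fit was -0.18, and the medians by complex were -0.32, 0.11, -0.20, 0.04 and -0.29 for complexes I to V.

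**Figure D2:**
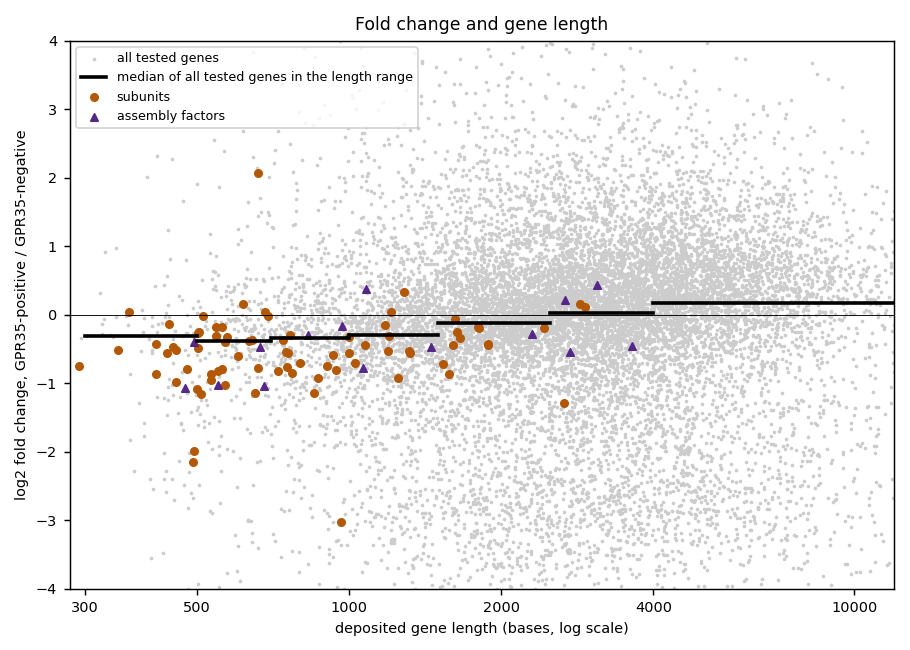
Log2 fold change (GPR35-positive over GPR35-negative) against the deposited gene length in bases (log scale) for all tested genes, subunits and assembly factors; horizontal bars are medians of all tested genes in 7 length ranges, and genes outside the axes are not drawn. The medians are near -0.3 to -0.4 below 1500 bases and 0.16 above 4000 bases, and most subunits lie on the short side.

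**Figure D3:**
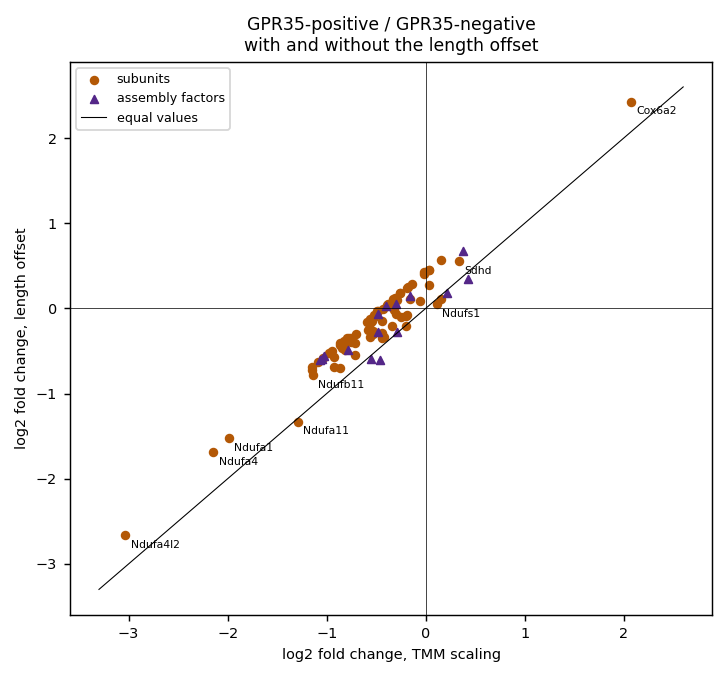
Log2 fold change with the length offset (vertical axis) against the value with TMM scaling alone (horizontal axis) for subunits and assembly factors; the line marks equal values. Most points lie above the line, so the offset raised their values, and the subunit median moved from -0.52 to -0.18. Ndufa4 and Ndufa1 stay at -1.69 and -1.52, and some genes moved away from 0, such as Sdhd (0.33 to 0.56) and Cox5a (-0.01 to 0.40).

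Scaling and single animals also bear on these counts. When every library was scaled to the macrophage markers, 87 of 88 members were lower, beside 86.5% of all tested genes, and 0 were higher, with Sdhd at -2.30 and Cox6a2 at -0.28. The subunit median was then -3.17 and that of all tested genes -2.65. Without the animal of replicate 3 the count of lower members was 22, and without that of replicate 4 it was 25. All of these members were among the 43. Lower calls over all tested genes fell too, from 2769 of 14184. They numbered 1712 of 14034 without the animal of replicate 3 and 1680 of 14233 without that of replicate 4.

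Within animals complex I had the lowest median of the 5 complexes in all 4. Its subunits had a median difference in log2 CPM of -0.47, -0.46, -0.59 and -0.94 in replicates 1 to 4, and complex V subunits had one of -0.40, -0.38, -0.42 and -0.89. For complex III the values were -0.25, -0.32, -0.44 and -0.64. The complex IV median was -0.15, 0.08, -0.34 and -0.78; without its 5 alternative isoforms, most of them at low levels, it was -0.15, -0.14, -0.39 and -0.78. Complex II stayed between -0.07 and 0.06.

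**Figure D4:**
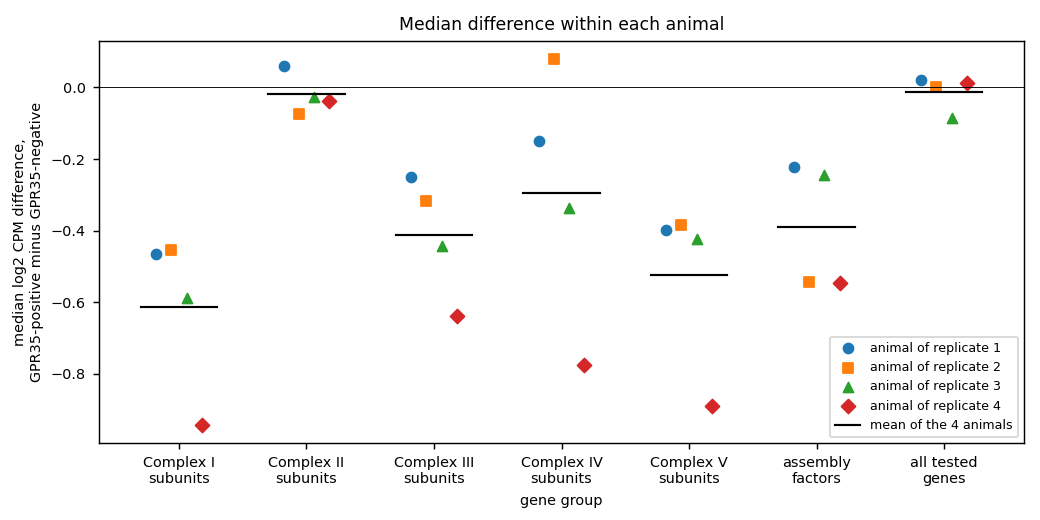
Median difference in log2 CPM (GPR35-positive minus GPR35-negative library of the same animal) for the subunits of each complex, the assembly factors and all tested genes; markers are the 4 animals and lines their mean. The animal of replicate 4 has the lowest value for complexes I, III, IV and V, and all tested genes lie between -0.09 and 0.02.

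Complex I, the NADH dehydrogenase and the largest of the complexes, held most of the lower members. Of its 36 subunits 25 (69.4%) were lower and 0 were higher, beside 19.5% and 18.5% of all tested genes. Decreases were seen in 21 of 29 accessory subunits, which surround the catalytic core, with a median log2 fold change of -0.72. Of the 7 nuclear-encoded core subunits, which carry the flavin and the iron-sulphur clusters, 4 were lower and the median was -0.44. With the length offset 16 subunits of the complex (44.4%, beside 20.1% of all tested genes) were lower. The accessory median was then -0.35 and the core median -0.16. Median listed lengths were 651 bases for accessory and 1608 bases for core subunits. The part of length in this contrast was not tested.

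Ndufa1, an accessory subunit of the membrane arm (Entrez gene 54405, chromosome X, 37187588 to 37191238 on GRCm38.p6), was at 57.6, 78.2, 63.6 and 70.2 CPM in GPR35-positive and at 174, 284, 251 and 360 CPM in GPR35-negative replicates 1 to 4. Every GPR35-negative library was above every GPR35-positive one. Its log2 fold change was -1.99 ± 0.22 (SE; adjusted p = 3.56e-04), and it stayed past the threshold in all 12 fits that left out a library or an animal. With the length offset it was -1.52.

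Ndufb11, another membrane-arm accessory subunit, was at 53.1, 65.8, 58.0 and 56.4 CPM in GPR35-positive and at 102, 130, 129 and 155 CPM in GPR35-negative libraries. The groups did not overlap, and the log2 fold change was -1.14 ± 0.15 (adjusted p = 6.77e-04). Its exons overlap those of Rbm10 on the opposite strand, and the library method does not mark strand. Ndufb9 was at 64.5, 88.6, 72.9 and 82.9 CPM in GPR35-positive libraries, against 133, 164, 174 and 212 CPM in GPR35-negative libraries. This gene also had groups that did not overlap (-1.15 ± 0.17; adjusted p = 0.00124), and its exons overlap those of Gm49356 on the same strand. The calls of Ndufb11 and Ndufb9 held in all 12 fits with a library or animal left out.

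Other large decreases were in Ndufa11 (-1.29 ± 0.22; adjusted p = 0.00265), Ndufs5 (-1.15 ± 0.19; 0.00204) and Ndufs6 (-1.03 ± 0.17; 0.00228). Ndufa11, a membrane-arm subunit, kept nearly the same value with the length offset, -1.33. The offset used only its listed length, which is 2661 bases. Exons of Ndufa11 overlap those of Vmac, and exons of Ndufs6 those of Mrpl36, each on the opposite strand. Ndufs5 was at 12.2 ± 0.74 CPM in GPR35-positive and 27.1 ± 5.92 CPM in GPR35-negative libraries. Values from -0.93 to -0.70, all past the threshold, followed for Ndufa13, Ndufb7, Ndufc1, Ndufv3, Ndufa5, Ndufs3, Ndufa12, Ndufb6, Ndufs4, Ndufs8 and Ndufab1. With the length offset Ndufa12 (-0.37, adjusted p = 0.0526) and Ndufab1 (-0.31, adjusted p = 0.181) were not past the threshold, and the others were. Ndufab1 is the mitochondrial acyl carrier protein, which serves lipoate synthesis besides complex I.

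Among the core subunits, Ndufs3 was at 30.4 ± 3.14 CPM in GPR35-positive cells, against 53.5 ± 8.57 CPM in GPR35-negative cells (-0.81 ± 0.15; adjusted p = 0.00373). Ndufs8 was at 88.0 ± 9.99 and 144 ± 28.0 CPM in GPR35-positive and GPR35-negative cells (-0.71 ± 0.16; adjusted p = 0.00853), Ndufs7 at 66.4 ± 6.29 and 97.5 ± 16.8 CPM (-0.55 ± 0.15; 0.0172), and Ndufv1, which binds the flavin and NADH, at 80.2 ± 9.10 and 109 ± 14.7 CPM (-0.44 ± 0.14; 0.0375). The other core genes were not past the threshold. With the length offset Ndufs7 was at -0.16 (adjusted p = 0.198) and Ndufv1 at -0.29 (adjusted p = 0.0805), neither past the threshold. Ndufs1, the largest subunit of the complex, was at 94.1, 80.8, 79.1 and 93.8 CPM in GPR35-positive and at 79.3, 71.1, 81.2 and 90.5 CPM in GPR35-negative libraries. These groups overlapped, and the value of 0.11 ± 0.12 (adjusted p = 0.497) was the highest in the complex. Ndufa10 (0.03) and Ndufc2 (0.04), accessory subunits, were also near 0.

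Complex II, succinate dehydrogenase, links the chain to the tricarboxylic acid cycle and has no mitochondrially encoded subunit. Of its 4 subunits 1 was lower and 1 higher (25% each, beside 19.5% and 18.5% of all tested genes). Sdhb, the iron-sulphur subunit, was at 160, 150, 141 and 151 CPM in GPR35-positive and at 170, 215, 195 and 236 CPM in GPR35-negative libraries. The groups did not overlap (-0.44 ± 0.13; adjusted p = 0.0257). Sdhd, a membrane anchor (Entrez gene 66925, chromosome 9, 50596340 to 50603849 on GRCm38.p6), was at 154, 178, 170 and 174 CPM in GPR35-positive and at 122, 132, 144 and 140 CPM in GPR35-negative libraries. It was higher in GPR35-positive cells of every animal (0.33 ± 0.11; adjusted p = 0.0386).

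Sdha, the flavoprotein, was at 298, 282, 275 and 315 CPM in GPR35-positive and at 260, 293, 280 and 216 CPM in GPR35-negative libraries. The groups overlapped, and its value was 0.16 ± 0.13 (adjusted p = 0.365). Sdhc, the other anchor, had a value of -0.15 ± 0.11 (adjusted p = 0.309). The calls of Sdhb and Sdhd each ended in 8 of the 12 fits with a library or animal left out. Without the animal of replicate 2, 3 or 4 the adjusted p was 0.133, 0.121 and 0.124 for Sdhb, and 0.0929, 0.129 and 0.119 for Sdhd. With the length offset Sdhb was at -0.14 (adjusted p = 0.315) and Sdhd at 0.56 (adjusted p = 0.00232), and with library size as the only scaling Sdhd was at 0.044 (adjusted p = 0.786). The adjusted p of Sdhd was 0.0521 with RLE scaling, 0.0585 with thinning, 0.105 with the 5 CPM filter and 0.222 with upper-quartile scaling.

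**Figure D5:**
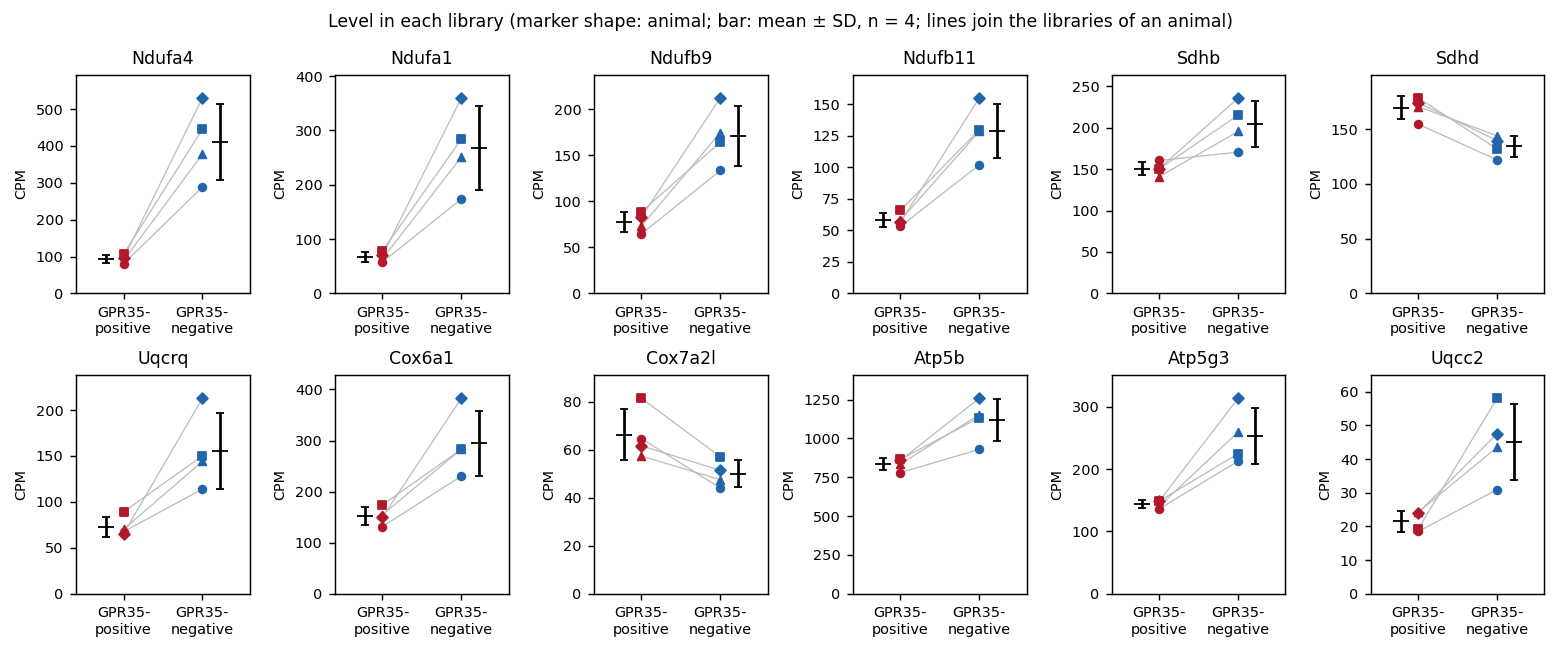
Level in CPM (linear axis from 0) of 12 genes in each library, GPR35-positive left and GPR35-negative right; marker shapes and grey lines join the libraries of an animal, and bars give the mean ± SD (n = 4). Ndufa4 lies between 80.1 and 106 CPM in GPR35-positive libraries and between 288 and 530 CPM in GPR35-negative ones, whereas Sdhd and Cox7a2l, on this TMM scale, are higher in the GPR35-positive library of every animal.

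Complex III, the cytochrome bc1 complex, had 4 of 9 nuclear subunits (44.4%) lower and 0 higher. These stand beside 19.5% and 18.5% of all tested genes. Uqcrq, a small accessory subunit, was at 67.5, 89.1, 70.0 and 65.3 CPM in GPR35-positive and at 114, 150, 144 and 213 CPM in GPR35-negative libraries. The groups did not overlap (-1.09 ± 0.20; adjusted p = 0.00347). Cyc1, which holds the haem of cytochrome c1, was at 98.5, 108, 97.5 and 102 CPM in GPR35-positive and at 119, 140, 156 and 170 CPM in GPR35-negative libraries. These also did not overlap (-0.53 ± 0.13; adjusted p = 0.0128). Uqcr11, an accessory subunit, was at 59.1 ± 5.06 CPM in GPR35-positive and 87.1 ± 13.6 CPM in GPR35-negative cells (-0.56 ± 0.14; adjusted p = 0.0138). Uqcrfs1, the Rieske iron-sulphur protein, was also lower (-0.53 ± 0.18; adjusted p = 0.0461).

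The remaining complex III subunits all had negative values that missed the threshold, among them the core proteins Uqcrc1 (-0.34; adjusted p = 0.0552) and Uqcrc2 (-0.44; adjusted p = 0.058). Uqcr10 was nearest to 0, at -0.14 ± 0.14 (adjusted p = 0.433). Without the animal of replicate 3 the adjusted p was 0.094 for Cyc1 and 0.0982 for Uqcr11, and without that of replicate 4 it was 0.0715 for Cyc1 and 0.0658 for Uqcr11. With the length offset Uqcr11 was at -0.12 (adjusted p = 0.393), Uqcrfs1 at -0.30 (adjusted p = 0.0917), and Uqcr10 at 0.29 (adjusted p = 0.0398). With the offset and the animal as a block together the adjusted p was 0.0661 for Uqcr10 and 0.0888 for Cyc1. With library size as the only scaling Uqcr10 was at -0.44 (adjusted p = 0.0441).

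Complex IV, cytochrome c oxidase, had 16 nuclear-encoded members, of which 15 were tested, 3 (20%, beside the 19.5% of all tested genes) were lower and 1 was higher. Ndufa4 is counted here because its protein, first assigned to complex I, is known as a subunit of complex IV. It had the largest decrease past the threshold of all members. Ndufa4 (Entrez gene 17992, chromosome 6, 11900372 to 11907450 on GRCm38.p6) was at 80.1, 106, 89.1 and 95.3 CPM in GPR35-positive libraries, against 288, 445, 378 and 530 CPM in GPR35-negative libraries. The groups were far apart (-2.15 ± 0.20; adjusted p = 1.58e-04), every left-out fit kept the call, and the length offset gave -1.69.

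Cox6a1, the widely expressed isoform of subunit VIa, was at 132, 174, 155 and 150 CPM in GPR35-positive and at 230, 283, 283 and 383 CPM in GPR35-negative libraries. All GPR35-negative libraries lay above all GPR35-positive ones (-0.95 ± 0.17; adjusted p = 0.00332). Cox7a2, the liver-type isoform of subunit VIIa, was at 88.9 ± 9.90 CPM in GPR35-positive and 150 ± 34.6 CPM in GPR35-negative cells (-0.76 ± 0.17; adjusted p = 0.0093), and its adjusted p without the animal of replicate 3 was 0.0599. The other common subunits, Cox4i1, Cox5a, Cox5b, Cox6b1, Cox6c, Cox7b, Cox7c and Cox8a, had values from -0.49 to -0.01 and none passed the threshold. Cox4i1, the regulatory subunit that is the most abundant of the complex per kilobase in GPR35-positive cells, was at 271, 349, 270 and 273 CPM in GPR35-positive and at 293, 331, 341 and 462 CPM in GPR35-negative libraries. These groups overlapped (-0.29 ± 0.17; adjusted p = 0.202).

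Isoforms known from muscle, testis or hypoxic cells were at low levels. Cox6a2, the heart and skeletal muscle isoform of subunit VIa, was at 1.87, 1.61, 1.05 and 0.853 CPM in GPR35-positive and at 0.489, 0.297, 0.24 and 0.233 CPM in GPR35-negative libraries (2.08 ± 0.64; adjusted p = 0.0309). Its exons overlap those of the integrin gene Itgad on the opposite strand, which was at 8.66 to 10.9 CPM in GPR35-positive and at 0 to 0.475 CPM in GPR35-negative libraries. Reads of the pair cannot be told apart in unstranded data. Its adjusted p was 0.0676 with the animal as a block, 0.0558 without a count filter and 0.128 with voom, and the call ended in 11 of 12 left-out fits, with an adjusted p of up to 0.128.

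Ndufa4l2, a hypoxia-induced relative of Ndufa4, was at 0.0467, 0.402, 1.87 and 0.536 CPM in GPR35-positive and at 1.10, 0, 12.3 and 10.0 CPM in GPR35-negative libraries. High values stood in GPR35-negative replicates 3 and 4, and the groups overlapped (-3.03 ± 1.5; adjusted p = 0.139, and 0.0328 in DESeq2 with the animal as a block). Cox4i2, the hypoxia-linked isoform of subunit IV, was not tested; it was at 0.117, 0.201, 1.17 and 0.317 CPM in GPR35-positive and at 0.214, 0.0594, 6.91 and 4.25 CPM in GPR35-negative libraries. The same pair of GPR35-negative libraries was highest for Cox4i2, and their stromal, endothelial and muscle marker sums of 7316 and 7297 CPM were also the highest of the 8 libraries. Ndufa4l2 exons overlap those of Shmt2 on the opposite strand, and reads of these 2 genes cannot be told apart there. Shmt2 was at 35.6 to 45.7 CPM in GPR35-positive and at 73.0 to 111 CPM in GPR35-negative libraries. Cox7a1, the muscle isoform, averaged 1.51 and 1.48 CPM in GPR35-positive and GPR35-negative cells, and Cox6b2, the testis isoform, 5.35 and 4.80 CPM, with values of 0.03 and 0.15 that missed the threshold.

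Cox7a2l, which joins complexes III and IV into supercomplexes, was at 64.6, 81.4, 57.3 and 61.6 CPM in GPR35-positive and at 44.0, 57.0, 47.5 and 51.4 CPM in GPR35-negative libraries. The groups did not overlap, with GPR35-positive replicate 3 just above GPR35-negative replicate 2 (0.41 ± 0.15; adjusted p = 0.0554). With the animal as a block the adjusted p was 0.0426, and without GPR35-negative replicate 2 it was 0.0344.

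Complex V, the ATP synthase, had 8 of 14 subunits (57.1%) lower and 0 higher, beside 19.5% and 18.5% of all tested genes. All 14 values were below 0. In the membrane sector and stalk 6 of 9 were lower with a median of -0.75. In the catalytic F1 head 2 of 5 were lower with a median of -0.42. Median listed lengths were 724 bases for the sector and stalk and 1800 bases for the head. With the length offset the medians were -0.35 and -0.20, and the part of length in this contrast was not tested. Atp5g1 and Atp5g3 encode the same mature c-ring protein. Atp5g1 was at 27.9, 38.3, 31.4 and 30.9 CPM in GPR35-positive and at 50.7, 64.4, 53.0 and 75.5 CPM in GPR35-negative libraries. Atp5g3 was at 136, 149, 140 and 149 CPM in GPR35-positive and at 213, 225, 260 and 314 CPM in GPR35-negative libraries. Neither had overlapping groups, with values of -0.92 ± 0.17 (adjusted p = 0.00329) for Atp5g1 and -0.82 ± 0.14 (adjusted p = 0.00286) for Atp5g3.

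Atp5o, the stalk protein that confers oligomycin sensitivity, was at 63.1, 84.4, 73.2 and 68.3 CPM in GPR35-positive and at 110, 122, 127 and 162 CPM in GPR35-negative libraries (-0.85 ± 0.15; adjusted p = 0.00313). The call of these 3 genes held in all left-out fits. Atp5j2, Atp5j and Atp5k, small membrane or stalk subunits, were lower by values of -0.80, -0.75 and -0.75. Of these, Atp5j2 and Atp5j stayed past the threshold with the length offset, and Atp5k did not. The catalytic beta subunit Atp5b was the most abundant member, at 780, 865, 835 and 858 CPM in GPR35-positive and at 929, 1133, 1152 and 1258 CPM in GPR35-negative libraries. The groups did not overlap (-0.42 ± 0.14; adjusted p = 0.0365). Its partner Atp5a1 had a value of -0.20 ± 0.12 (adjusted p = 0.221), and Atp5l was nearest to 0, at -0.02 ± 0.18 (adjusted p = 0.947). With the length offset 7 subunits of the complex (50%, beside 20.1% of all tested genes) were lower. Atp5l was then at 0.42 (adjusted p = 0.0289, and 0.0766 with the animal as a block).

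Assembly factors help to build the complexes and do not remain in them. Uqcc2, which acts early in the making of cytochrome b, was at 18.5, 19.3, 24.2 and 24.0 CPM in GPR35-positive and at 30.9, 58.0, 43.5 and 47.6 CPM in GPR35-negative libraries. The groups did not overlap (-1.07 ± 0.21; adjusted p = 0.00424). Ndufaf2, a chaperone of late complex I assembly, was at 7.91, 5.65, 7.74 and 8.73 CPM in GPR35-positive and at 13.1, 12.2, 13.1 and 23.6 CPM in GPR35-negative libraries. The highest value was that of GPR35-negative replicate 4 (-1.04 ± 0.28; adjusted p = 0.0176). Ndufaf3 had a value of -0.78 ± 0.23 (adjusted p = 0.0262) with groups that overlapped.

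Sdhaf3 was low in all libraries, at 3.14 ± 0.588 CPM in GPR35-positive and 6.38 ± 1.37 CPM in GPR35-negative cells (-1.02 ± 0.32; adjusted p = 0.0342, and 0.0649 with the animal as a block). The highest values among the factors were those of Sdhaf2, which flavinates Sdha (0.43 ± 0.16; adjusted p = 0.0596, and 0.047 without the animal of replicate 3), Ndufaf6 (0.38; 0.37) and Uqcc1 (0.22; 0.359). The exons of Sdhaf2 overlap those of Cpsf7 on the opposite strand, which was at 17.6 ± 0.927 CPM in GPR35-positive and 13.1 ± 2.39 CPM in GPR35-negative cells, and those of Ndufaf3 overlap Impdh2. Of the 4 decreases, only that of Uqcc2 was past the threshold with the length offset (-0.61, adjusted p = 0.0309), and it was not with the animal as a block in the same fit (0.0689). Ndufaf2 then had an adjusted p of 0.0955 and Ndufaf3 one of 0.0515. Without the animal of replicate 3 the adjusted p was 0.0633 for Ndufaf2 and 0.101 for Ndufaf3, and without that of replicate 4 it was 0.0556 for Ndufaf2 and 0.137 for Ndufaf3. The call of Ndufaf3 ended in 8 of the 12 fits with a library or animal left out.

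Levels per kilobase of listed gene length varied among the subunits of a complex. In complex I the lowest subunit was Ndufab1, with a level of 12.8 CPM per kilobase in GPR35-positive and 20.9 in GPR35-negative cells. The highest was Ndufa3 in GPR35-positive cells, at 197 CPM per kilobase, and Ndufa1 in GPR35-negative cells, at 542. Complex II spanned 68.3 to 140 CPM per kilobase in GPR35-positive and 76.0 to 190 in GPR35-negative cells, with Sdhc lowest and Sdhb highest in both. In complex IV, isoforms aside, Cox5b was lowest in both, and the highest level was that of Cox4i1 in GPR35-positive cells (381 CPM per kilobase) and of Ndufa4 in GPR35-negative cells (834). Atp5b led complex V at 444 and 595 CPM per kilobase in GPR35-positive and GPR35-negative cells.

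Counting limits apply to some members. For 17 tested subunits a pseudogene annotated in GENCODE vM21 matched the transcript at 95% identity or more over at least 200 bases. Of these 10 were lower (median -0.70), and of the 61 without such a copy 31 were lower (median -0.44). Exons overlapped those of another gene for 29 tested subunits, of which 16 were lower, against 25 of the 49 without overlap. The share lower was 52.6% over all tested subunits and 19.5% over all tested genes. Ndufa4, Ndufa1, Cox6a1, Uqcrq, Cyc1, Sdhb and Sdhd had neither. Atp5l had the most such pseudogenes, 8, and its exons overlap those of Gm30934 on the opposite strand. Among other genes described above, Atp5g1, Atp5o, Ndufb11, Ndufs3, Ndufs5 and Ndufs6 had 1 such pseudogene each.

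Other mitochondrial gene groups had medians between -0.26 and 0.19. Their shares of lower genes, 0% to 28.6%, and of higher genes, 2.86% to 33.3%, stand beside the 19.5% and 18.5% of all tested genes. Among 35 assembly factors outside the Ndufaf, Sdhaf and Uqcc names 5 were lower and 1 was higher, with a median of -0.22. With the length offset 4 of them were lower and 5 higher. Chchd10, a protein of the intermembrane space, was at 6.02 ± 0.861 CPM in GPR35-positive and 94.8 ± 40.8 CPM in GPR35-negative cells (-3.97 ± 0.31; adjusted p = 6.56e-05). Cox17, the copper chaperone of complex IV, was also lower (-1.47 ± 0.21; adjusted p = 0.00124), and Coa5 was higher (0.86 ± 0.19; adjusted p = 0.00757). Cytochrome c itself, Cycs, was at 57.1 ± 6.0 CPM in GPR35-positive and 94.7 ± 18.8 CPM in GPR35-negative cells (-0.73 ± 0.17; adjusted p = 0.00887).

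Cytochrome c and coenzyme Q synthesis together had 2 higher and 4 lower of 15 genes, with a median of -0.19. Coq8b (1.17 ± 0.26; adjusted p = 0.00834) and Coq10b (0.90 ± 0.22; 0.0125) were higher, and Coq2 (-0.75 ± 0.16; 0.00686) and Coq9 (-0.68 ± 0.13; 0.00383) were lower. Without the animal of replicate 1 the adjusted p of Coq10b was 0.0615. Of 7 other enzymes that feed electrons to coenzyme Q, Sqor, the sulphide oxidase, was higher (0.81 ± 0.25; 0.0326) and Gpd2, the mitochondrial glycerol phosphate dehydrogenase, lower (-0.50 ± 0.17; 0.0491). The call of Gpd2 ended with the animal as a block (0.0912) and in 10 of 12 left-out fits (up to 0.222), and that of Sqor in 6 of 12 (up to 0.0929) and with library-size (0.157) or upper-quartile scaling (0.0656).

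The tricarboxylic acid cycle list had 3 higher and 3 lower of 20 genes, 15% in each direction and below the shares of all tested genes (median -0.16). Dlst (0.67 ± 0.11; adjusted p = 0.00199) and Pdhx (0.63 ± 0.14; 0.00857), parts of the oxoglutarate and pyruvate dehydrogenase complexes, were higher. Mpc2, of the pyruvate carrier (-0.94 ± 0.22; 0.00924), and Suclg2, of succinyl-CoA ligase (-0.85 ± 0.17; 0.00438), were lower. Without the animal of replicate 3 the adjusted p of Pdhx was 0.0523, and with library-size scaling it was 0.0784. In the list of mitochondrial dynamics and inner membrane shape 4 of 14 were lower, among them Fis1 (-0.88 ± 0.14; 0.00161) and Apoo (-1.30 ± 0.29; 0.00812), and Dnm1l, the fission GTPase, was the 1 higher gene (0.36 ± 0.12; 0.0381). Dnm1l lost its call with the length offset (0.301), in 9 of 12 left-out fits (up to 0.121), with the 5 CPM filter (0.091), thinning (0.0619) and upper-quartile scaling (0.177), and with library-size scaling, where it was at 0.065 (0.708).

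In the list of mitochondrial biogenesis and transcription 1 of 14 was higher and 2 were lower (median 0.17), and with the animal as a block 2 were higher and 1 lower. Esrra, a nuclear receptor that drives respiratory genes, was at 22.2 ± 1.19 CPM in GPR35-positive and 10.6 ± 4.09 CPM in GPR35-negative cells (1.07 ± 0.28; adjusted p = 0.0161), and lost its call without the animal of replicate 3 (0.0862) or 1 (0.0669). Tfam, the mitochondrial transcription factor, was lower (-0.43 ± 0.14; 0.0382, and 0.0749 with the animal as a block, and up to 0.18 in the 10 of 12 left-out fits that ended the call), as was Ssbp1, the mitochondrial single-stranded DNA binding protein (-0.58 ± 0.13; 0.00714, and 0.0563 without the animal of replicate 2).

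Among 10 uncoupling proteins, carriers and the ATPase inhibitor, only Ucp2 passed the threshold. With the length offset 5 of the 10 were higher (50%, beside 18.3% of all tested genes) and 0 lower. Ucp2, an inner membrane carrier of the uncoupling protein family, was at 1575 ± 82.3 CPM in GPR35-positive and 680 ± 91.1 CPM in GPR35-negative cells (1.21 ± 0.14; adjusted p = 4.22e-04). The antioxidant list had 3 higher and 1 lower of 9 (median 0.05). Prdx5, a peroxiredoxin, was at 227 ± 37.5 CPM in GPR35-positive and 89.8 ± 10.1 CPM in GPR35-negative cells (1.34 ± 0.15; adjusted p = 4.04e-04), and Gsr, glutathione reductase, was higher too (1.03 ± 0.25; 0.0125, and 0.0576 without the animal of replicate 1). Gpx4 was lower (-0.50 ± 0.17; 0.0486), a call that ended with the length offset (0.0736) and in 9 of 12 left-out fits (up to 0.17). Every increase named for these lists turned negative when libraries were scaled to the macrophage markers, a scaling that moved the median of all genes to -2.65.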

How the data were processed

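RNA was measured in 8 bulk libraries, 4 of each population, paired by the animal numbers in the labels. Per the labels' protocols, SMART-Seq v4 amplified the cDNA of sorted cells and Nextera XT made the libraries, with no molecular identifiers and no strand mark. The authors deposited raw counts per gene with a gene length. The submitters' processing notes name mm10, R 3.4.2 and STAR 2.5.2a; for the counting tool, its annotation and its treatment of reads with several matches the entry is: not given in the sources used here. Of 14980 rows, 9 without a symbol (0.0179% of counts) were left out.

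After filterByExpr (count at least 10, total at least 15) libraries were scaled by TMM and genes tested with edgeR 4.0.16 (R 4.3.3; robust quasi-likelihood F-test, no block), with Benjamini-Hochberg adjustment over 14184 genes and a threshold of 0.05. Every adjusted p comes from this test unless another is named. SE is the absolute log2 fold change divided by the root of F. CPM uses TMM effective library sizes, and log2 CPM a prior count of 2. Other settings were RLE, library-size, upper-quartile and macrophage-marker scaling, other filters (none, or at least 5 CPM in 4 libraries), the animal as a block, DESeq2 1.42.0, limma 3.58.1 voom, a loess offset on log2 gene length (span 0.5), thinning, and leaving out each library or animal. The test was checked on simulated counts. Python 3.11.15 and BLAST 2.17.0 were used for summaries and pseudogene matches. Coordinates come from RefSeq through the Entrez IDs, which matched for 96 of 96 genes.

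The deviations of same-animal libraries from their group means correlated at 0.206, 0.206, 0.431 and 0.0637 for replicates 1 to 4, and the highest correlations with another animal's library were 0.104, 0.0911, 0.172 and 0.237. The pairing itself comes from the labels. No replicate pair agreed within sampling noise (smallest chi-square per degree of freedom 26.6). Whether animals were handled on separate days is not stated.

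Members and lists were chosen with earlier results of these data known. Full statistics were set for the 3 smallest p and the highest and lowest value of each complex, assembly factors with the 3 smallest p in each direction, alternative isoforms, and up to 2 genes in each direction of every other list. Members named beyond these were chosen after their values were seen, as were Cycs, Nrf1, Gabpa and Yy1. Trac, Epx, Ucp3, Atp5g2 and Cox8b were not analysed here. The values of 1 complex I subunit, which is included in the counts and medians, are not reported here.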

Additional observations from a re-analysis of the deposited data

Results flagged for a closer look

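Within the 78 groups of 4 libraries examined, 3 values stood far from the other 3 of their group, where chance gives about 1 in 20. Ndufaf2 was at 4.56 log2 CPM in GPR35-negative replicate 4, with the others at 3.61 to 3.72. Cox4i1 was at 8.45 log2 CPM in GPR35-positive replicate 2, with the others at 8.08 to 8.09, and Cox8a was at 7.81 log2 CPM in the same library, with the others at 7.39 to 7.40. Neither Cox4i1 nor Cox8a passed the test between the populations.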

How the results depend on the processing

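The lower direction of the subunit median held under every setting tried. All 43 lower members stayed lower and past the threshold with RLE, library-size, upper-quartile and macrophage-marker scaling, DESeq2, voom, the replicate block and thinning. Library-size, upper-quartile and macrophage-marker scaling moved the median of all genes to -0.34, -0.19 and -2.65, so lower calls kept there add little support. Of the 43, 42 stayed without a count filter, 28 with the length offset and 25 with the offset and the replicate block. With the replicate block alone 45 members were lower, 2 were higher, and the calls of Cox6a2, Sdhaf3 and Cox7a2l changed as given above; Ndufb5 and Cox5b became lower past the threshold. No other member changed its call under the block. With library size alone 1695 genes were higher and 4191 lower, 1 and 71 of them members. Medians were -0.82 for subunits, -0.75 for assembly factors, -0.94 for complex I, -0.29 for complex II, -0.73 for complex III, -0.80 for complex V, with reversed values for Ndufs1 -0.18, Uqcc1 -0.078, Cox6b2 -0.14, Cox7a1 -0.26. Macrophage-marker scaling gave 70 higher and 12270 lower genes, with 0 and 87 members, and medians of -3.17 for subunits, -3.04 for assembly factors, -3.305 for complex I, -2.60 for complex II, -3.10 for complex III, -2.96 for complex IV, -3.15 for complex V. Values that turned negative were Ndufs1 -2.51, Sdhd -2.30, Cox6a2 -0.28, Sdhaf2 -2.25, Uqcc1 -2.42, Ndufaf6 -2.34, Cox6b2 -2.40, Cox7a1 -2.69, Cox7a2l -2.20, Coa5 -1.64, Coq8b -1.33, Coq10b -1.73, Sqor -1.85, Dlst -1.91, Pdhx -1.98, Esrra -1.46, Ucp2 -1.30, Dnm1l -2.28, Prdx5 -1.21, Gsr -1.66. The same scaling with the replicate block gave 96 higher and 11628 lower genes, with 0 and 86 members, and medians of -2.92 for subunits, -2.85 for assembly factors, -3.04 for complex I, -2.40 for complex II, -2.84 for complex III, -2.74 for complex IV, -2.92 for complex V. Values that turned negative were Ndufs1 -2.30, Sdhd -2.07, Cox6a2 -0.29, Sdhaf2 -1.98, Uqcc1 -2.18, Ndufaf6 -2.01, Cox6b2 -2.17, Cox7a1 -2.36, Cox7a2l -2.01, Coa5 -1.53, Coq8b -1.15, Coq10b -1.51, Sqor -1.52, Dlst -1.74, Pdhx -1.78, Esrra -1.26, Ucp2 -1.18, Dnm1l -2.05, Prdx5 -1.08, Gsr -1.40. The length offset placed 7 members higher, with medians of -0.18 for subunits, -0.27 for assembly factors, -0.32 for complex I, 0.11 for complex II, -0.20 for complex III and reversed values for Sdhc 0.10, Uqcr10 0.29, Atp5l 0.42, Cox4i1 0.097, Cox6b1 0.19, Cox8a 0.26. With the replicate block added, 25 members were lower and 5 higher, with medians of -0.18 for subunits, -0.21 for assembly factors, -0.32 for complex I, 0.11 for complex II, -0.20 for complex III, 0.038 for complex IV and reversed values for Sdhc 0.10, Uqcr10 0.30, Atp5l 0.42, Cox4i1 0.097, Cox6b1 0.19, Cox8a 0.26. Members higher numbered 1 with RLE scaling, upper-quartile scaling, no filter, voom and thinning, and 0 with at least 5 CPM in 4 libraries. The complex II median was -0.14 with upper-quartile scaling and -0.079 with the 5 CPM filter. Ndufs1 was -0.031 and Cox7a1 -0.10 with upper-quartile scaling, and Cox7a1 -0.095 with voom. Leaving out a library or animal gave 1572 to 2931 higher and 1680 to 3035 lower genes, 0 to 2 higher and 22 to 59 lower members, and a complex II median of -0.019 to 0.081. Near 0, Atp5l ranged over -0.12 to 0.12, Cox7a1 over -0.18 to 0.30, Cox6b2 over -0.11 to 0.53 and Cox8a over -0.29 to 0.0087. These fits use fewer libraries. The cause of the other changes was not tested. The depth of 16 to 48.6 M counts leaves isoforms near 1 CPM with few reads, and marker levels and gene length differ with the populations.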
